A study of Mus musculus with 9 samples.

Results

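The genes described here belong to the Notch signalling pathway: its receptors, ligands, processing enzymes, nuclear cofactors, genes listed as targets and a pair of inhibitors. They were taken from a list of 29 genes, and each gene was read from the brightest array row that carried its symbol and no other. Of the 29, 26 were measured among 14860 genes in all. Aph1a and Maml2 were not analysed here, and neither was Notch4, whose row carried several symbols. Expression was measured in mouse embryonic stem cells of the line E14.1 (129/Ola) that had been differentiated toward the heart, with 3 Affymetrix Mouse Exon 1.0 ST arrays for each of 3 groups. The cTnT+ group held cardiomyocytes, named for cardiac troponin T, that were grown on from the Flk1+Pdgfra+ fraction, and the labels do not say whether they were sorted. The Flk1+Pdgfra+ group held cardiac progenitors sorted for both surface receptors, and the Flk1+ group held cells of the same differentiation that carried Flk1 and lacked Pdgfra. All groups come from 1 cell line with no treatment or mutation named, and the labels give no day of culture. Values are log2 RMA values, a scale on which 1 unit is a doubling, and levels of different genes are not compared because each gene has its own probes.

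Notch receptors are cut when a ligand on a neighbouring cell binds them. Gamma-secretase then frees the intracellular part of the receptor, which enters the nucleus, binds the DNA-binding protein RBPJ with a Mastermind cofactor and switches on targets such as the Hes and Hey repressors. Fringe enzymes add sugars to the receptors and change which ligands they answer to. In the embryo, Dll1 and Dll3 are known for the segmentation of presomitic mesoderm, Dll4 for arteries and sprouting vessels, and Notch with Hey factors for heart valves and chambers.

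The sequences shown are those of the DNA just upstream of the start of the genes that matter most here, since RBPJ and the Hes and Hey factors act on DNA. They come from RefSeq, build GRCm38.p6, which held 28 promoters for 22 of the 26 measured genes, each read as the 250 bases before the transcription start. Hes1, Hey1, Heyl and Mfng were not matched. The upstream DNA of Dll3 and Dll4, the ligands that differed most between the progenitor fractions, is given 5′ to 3′ on the gene's own strand, with the Hes and Hey site CACGCG in capitals where it occurs.
Dll3 (chr7:28301786-28302035, minus strand): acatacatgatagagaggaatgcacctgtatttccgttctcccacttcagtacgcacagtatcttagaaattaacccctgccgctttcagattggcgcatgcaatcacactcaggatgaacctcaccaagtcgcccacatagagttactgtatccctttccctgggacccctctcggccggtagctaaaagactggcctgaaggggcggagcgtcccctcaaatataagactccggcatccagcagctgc
Dll4 (chr2:119325534-119325783, plus strand): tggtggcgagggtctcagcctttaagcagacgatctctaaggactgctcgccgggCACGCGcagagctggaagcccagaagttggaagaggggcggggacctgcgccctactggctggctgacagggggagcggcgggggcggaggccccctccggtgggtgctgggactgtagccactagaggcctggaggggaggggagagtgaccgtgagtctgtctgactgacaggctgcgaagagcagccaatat
The RBPJ site GTGGGAA, searched on both strands, was present in 5 of the 28 promoters, those of Psen2, Hes5, Lfng, Hey2 and Hes7, and in 5.42% of all 32851 promoters in the table. Its matches are shown with 10 bases on each side, 5′ to 3′ on the gene's strand, with the site in capitals, so that TTCCCAC is the same site on the other strand.
Psen2 (chr1:180246023-180246049, minus strand): cacaggagacTTCCCACagatgtttat
Hes5 (chr4:154960687-154960713, plus strand): ggcgagcgcgTTCCCACagcccggaca
Hes5 (chr4:154960830-154960856, plus strand): gccgccgagtGTGGGAAcggccgcggc
Lfng (chr5:140607222-140607248, plus strand): cgtatcccacGTGGGAAggagagatct
Hey2 (chr10:30842974-30843000, minus strand): cgcggtggcaTTCCCACgcctctgcca
Hes7 (chr11:69120263-69120289, plus strand): ctcccctcacTTCCCACatttggggct
Hes5, an RBPJ target in the neural tube, carried a pair of matches, 226 and 83 bases before its start. The Lfng match lay 109 bases before the start and overlapped a CACGTG. The letters CACGCG were present in 7 promoters, those of Dll1, Dll4, Jag1, Notch2, Lfng, Rfng and Hes7, against 7.62% of all promoters. CACGTG was present in 3 (Psen2, Nrarp and Lfng) against 6.02%, the ETS site CCGGAAG in 2 (Ncstn and Rfng) against 6.91%, and the T-box site GGTGTGA in 0 against 3.33%. A match is a description of these letters only and was not tied to binding.

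Pdgfra, a receptor used in the sort, was higher in Flk1+Pdgfra+ than in Flk1+ cells. Pdgfra averaged 11.31 ± 0.32 in cTnT+ cells, 11.35 ± 0.42 in Flk1+Pdgfra+ cells and 6.96 ± 0.40 in Flk1+ cells (log2, SD, n = 3 each). Kdr, which encodes Flk1, averaged 10.84 ± 0.50 in cTnT+ cells, 11.98 ± 0.25 in Flk1+Pdgfra+ cells and 12.30 ± 0.16 in Flk1+ cells. Tnnt2, which encodes cardiac troponin T, averaged 12.28 ± 0.38 in cTnT+ cells, 7.01 ± 0.37 in Flk1+Pdgfra+ cells and 8.36 ± 0.52 in Flk1+ cells. Its difference between Flk1+Pdgfra+ and Flk1+ cells was -1.35 (limma adjusted p = 0.0289). The third array of each progenitor fraction stood apart: replicates 1 and 2 correlated at 0.9975 over all genes in Flk1+Pdgfra+ cells and at 0.9957 in Flk1+ cells, while the lowest within-group correlations were 0.9875 and 0.9734. Against the mean of replicates 1 and 2, 6 Notch genes differed by at least 1 log2 unit on Flk1+Pdgfra+ replicate 3, and 6 on Flk1+ replicate 3. The share of all genes that differed by as much was not counted, so these counts are not read as particular to Notch genes. The largest gap between replicates 1 and 2 themselves was 0.27 in Flk1+Pdgfra+ cells and 0.79 in Flk1+ cells. On the third arrays the presomitic gene Tbx6 was higher by 1.73 in Flk1+Pdgfra+ cells and by 0.55 in Flk1+ cells, and the pluripotency factor Nanog by 0.77 and 4.67. The endothelial gene Cdh5 stood at -2.79 in Flk1+Pdgfra+ cells and -0.76 in Flk1+ cells on the same measure. The part of these shifts in the Notch values was not tested. Differences of at least 0.4 between the progenitor fractions in listed Notch genes are therefore given also from replicates 1 and 2 alone. Other results are given in this way only where stated.

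Of the 26 genes, 15 passed the test in at least 1 of the 3 comparisons between groups, and 11 passed in none. A gene was called when its limma p, adjusted over all 14860 genes, was under 0.05. Between Flk1+Pdgfra+ and Flk1+ cells, 2 of 26 rose (7.69%) and 3 fell (11.5%; 3 and 5 with replicate number as a block over the 6 progenitor arrays), where 4.64% of all genes rose and 5.87% fell (10.5% either way). Between cTnT+ and Flk1+Pdgfra+ cells, 7 rose and 7 fell (26.9% each way), where 22.5% of all genes rose and 18.7% fell (41.2% either way). Between cTnT+ and Flk1+ cells, 3 rose (11.5%) and 6 fell (23.1%), where 22.6% of all genes rose and 16.6% fell (39.2% either way). In all, 14 of 26 were called between cTnT+ and Flk1+Pdgfra+ cells and 9 of 26 between cTnT+ and Flk1+ cells. The share that rose between cTnT+ and Flk1+ cells lay below that of all genes, none of these shares was tested against the array, and only the named genes are read further. The median difference of the 26 genes was 0.04, 0.02 and -0.06 in the 3 comparisons in that order, against 0.07, 0.00 and 0.05 over all genes.

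**Figure D1:**
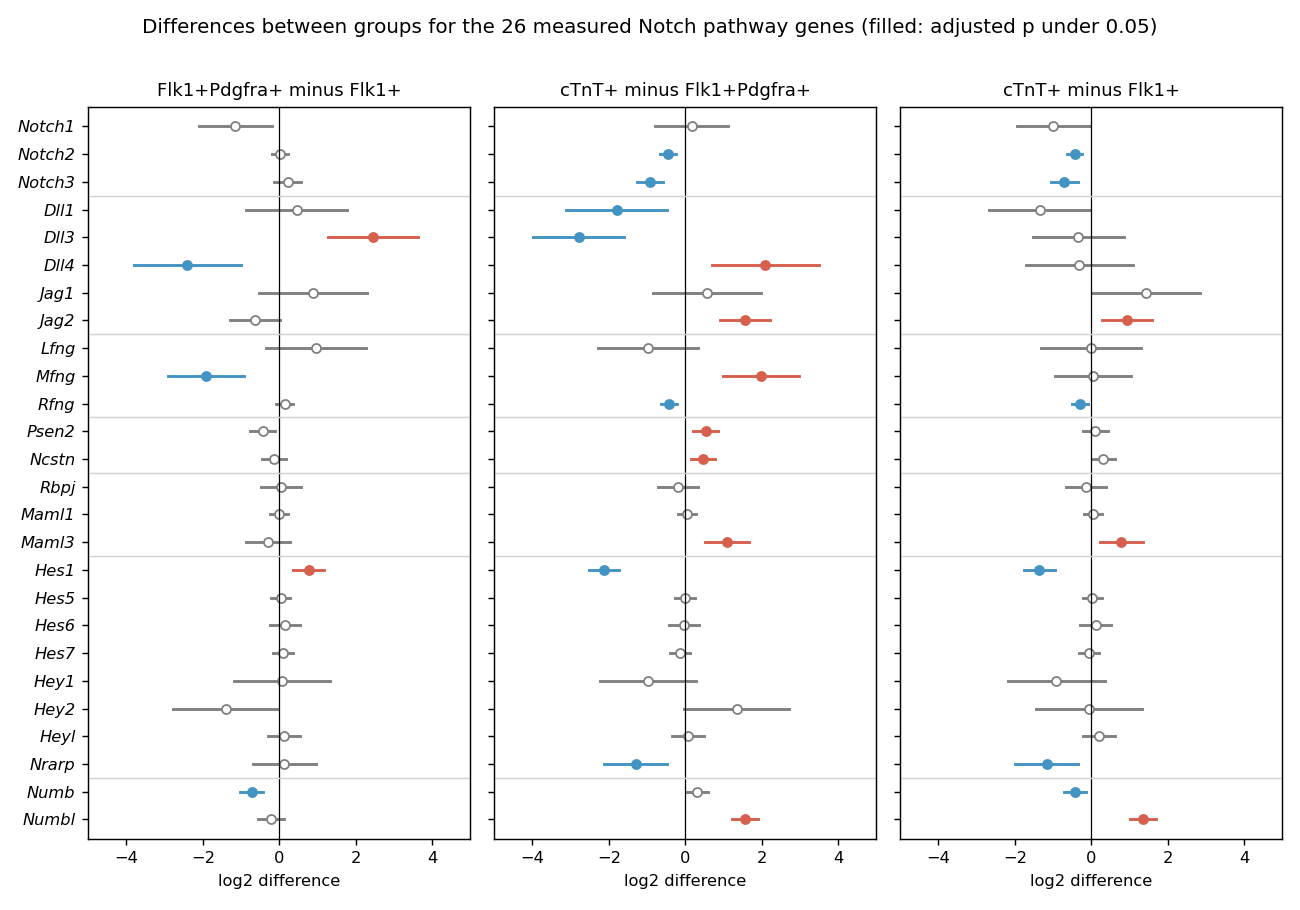
Log2 differences (x axis) of the 26 measured Notch pathway genes (rows, ordered by role) in the 3 comparisons, with 95% confidence intervals from limma as bars. Filled points passed an adjusted p of 0.05, red for higher and blue for lower in the first-named group. Hes1 is the single gene filled in all 3 panels.

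Dll3 and Dll4 moved in opposite directions between the progenitor fractions. Dll3, a divergent ligand that does not activate receptors on neighbouring cells and is known for somite formation, was 5.49-fold higher in Flk1+Pdgfra+ than in Flk1+ cells. Dll4, the ligand of arterial endothelium and sprouting vessels, was 5.30-fold lower. In cTnT+ cells against Flk1+Pdgfra+ cells each turned the other way, and both comparisons share the Flk1+Pdgfra+ arrays.

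Dll3 (transcript cluster 6966136, chromosome 7) had 7.49, 7.42 and 7.46 in cTnT+ cells, 9.76, 9.50 and 11.49 in Flk1+Pdgfra+ cells, and 7.48, 7.34 and 8.56 in Flk1+ cells, for replicates 1 to 3. Every Flk1+Pdgfra+ array lay above every other array, and replicate 3 was the highest of its group in both progenitor fractions. The difference between Flk1+Pdgfra+ and Flk1+ cells was 2.46 ± 0.52 (SE, adjusted p = 0.0207), and from progenitor replicates 1 and 2 alone it was 2.22 (adjusted p = 0.0004). The call was lost without Flk1+ replicate 1 (2.30, adjusted p = 0.0745) and without Flk1+ replicate 2 (2.23, adjusted p = 0.0888), and in a fit of these groups alone (adjusted p = 0.0551). In cTnT+ cells Dll3 was 6.93-fold lower than in Flk1+Pdgfra+ cells, a difference of -2.79 (adjusted p = 0.00283), and this call held whichever array was left out. The cTnT+ and Flk1+ groups overlapped for Dll3 (difference -0.34, adjusted p = 0.659). In bulk samples such as these, fewer cells of a type and less RNA per cell cannot be told apart, for Dll3 and for every gene that follows.

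Dll4 (6880513, chromosome 2) had 8.60, 9.34 and 9.42 in cTnT+ cells, 7.22, 7.36 and 6.51 in Flk1+Pdgfra+ cells, and 10.02, 10.40 and 7.87 in Flk1+ cells. All Flk1+Pdgfra+ arrays were below all others, and Flk1+ replicate 3 was far below the other Flk1+ arrays. The difference between Flk1+Pdgfra+ and Flk1+ cells was -2.41 ± 0.61 (SE, adjusted p = 0.0421), and -2.93 from replicates 1 and 2 alone (adjusted p = 0.0020). It was called without Flk1+ replicate 3 and lost the call without any one of the other 8 arrays, with adjusted p from 0.0541 (without cTnT+ replicate 1) to 0.142 (without Flk1+ replicate 2). It was also lost in a fit of these groups alone (adjusted p = 0.0798) and when every array row was tested (0.0593). Dll4 was 4.27-fold higher in cTnT+ than in Flk1+Pdgfra+ cells (2.09, adjusted p = 0.0244). That call was lost without cTnT+ replicate 2 (1.98, adjusted p = 0.0713), cTnT+ replicate 3 (1.94, 0.0717), Flk1+Pdgfra+ replicate 1 (2.19, 0.0544) or Flk1+Pdgfra+ replicate 3 (1.83, 0.0774). Between cTnT+ and Flk1+ cells Dll4 differed by -0.31 (adjusted p = 0.736), with a wide spread among the Flk1+ arrays (SD 1.36).

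Dll1, the ligand that activates Notch in presomitic mesoderm, did not pass between the progenitor fractions. Dll1 (6853934, chromosome 17) had 6.58, 6.89 and 6.73 in cTnT+ cells, 7.80, 7.66 and 10.13 in Flk1+Pdgfra+ cells, and 8.06, 8.36 and 7.81 in Flk1+ cells. The Flk1+Pdgfra+ mean exceeded the Flk1+ mean through replicate 3 alone: the difference was 0.45 on all arrays (95% interval -0.87 to 1.78, adjusted p = 0.675) and -0.48 from replicates 1 and 2 (adjusted p = 0.0911). All cTnT+ arrays were below all progenitor arrays. Dll1 was 3.48-fold lower in cTnT+ than in Flk1+Pdgfra+ cells (-1.80, adjusted p = 0.0358), a call lost without any one of the 3 cTnT+ arrays or without Flk1+ replicate 1 or 2 (adjusted p 0.0522 to 0.0925), in a fit of these groups alone (0.0713) and with array weights (0.0964). Without Flk1+Pdgfra+ replicate 3 it was -0.9996 and was called. Against Flk1+ cells the difference was -1.35 (adjusted p = 0.101). It passed when the third array was left out of both progenitor groups (adjusted p = 0.000393) and when Flk1+Pdgfra+ replicate 3 alone was left out (adjusted p = 0.000659). Quantile scaling (-1.60, adjusted p = 0.0480), median centring (-1.68, 0.0293) and array weights (-1.59, 0.0275) called it too. So did a fit of the cTnT+ and Flk1+ groups alone (adjusted p = 0.00247).

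Both Jagged ligands had their highest group mean in cTnT+ cells, and only Jag2 passed the test on all arrays. Jag2 (6803917, chromosome 12) had 9.47, 9.34 and 8.32 in cTnT+ cells, 7.29, 7.37 and 7.76 in Flk1+Pdgfra+ cells, and 8.04, 7.99 and 8.31 in Flk1+ cells. The cTnT+ arrays lay above all progenitor arrays, though replicate 3 only just cleared the highest Flk1+ array. Jag2 rose 2.97-fold in cTnT+ against Flk1+Pdgfra+ cells (1.57, adjusted p = 0.00274) and 1.91-fold against Flk1+ cells (0.93, adjusted p = 0.0323). The second of these calls was lost without cTnT+ replicate 1 or 2 or Flk1+ replicate 1 or 2 (adjusted p 0.0853 to 0.104), under quantile scaling (0.67, 0.121) and under median centring (0.60, 0.106). Between Flk1+Pdgfra+ and Flk1+ cells it differed by -0.64 with no overlap (adjusted p = 0.21), and by the same amount with adjusted p = 0.0211 when replicate number was a block over the 6 progenitor arrays. Without cTnT+ replicate 3 that difference was also called (adjusted p = 0.0382). From replicates 1 and 2 alone it was -0.68 and was not called (adjusted p = 0.303).

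Jag1 (6891336, chromosome 2), a ligand of heart valves and vessels, had 9.49, 9.82 and 9.68 in cTnT+ cells, 8.51, 8.53 and 10.28 in Flk1+Pdgfra+ cells, and 7.32, 7.87 and 9.47 in Flk1+ cells. The third arrays of both progenitor fractions were higher than their partners, by 1.77 in Flk1+Pdgfra+ cells and by 1.87 in Flk1+ cells. Jag1 differed by 0.89 between Flk1+Pdgfra+ and Flk1+ cells (95% interval -0.53 to 2.30, adjusted p = 0.415). Its adjusted p was 0.0277 with the replicate block over the 6 progenitor arrays, and 0.0284 from replicates 1 and 2 alone. Against Flk1+ cells the cTnT+ group was 2.72-fold higher without passing (1.44, adjusted p = 0.101). Without Flk1+ replicate 3 that difference was 2.07 (adjusted p = 0.0151). Against Flk1+Pdgfra+ cells the cTnT+ group was 0.55 higher on all arrays (adjusted p = 0.525). From progenitor replicates 1 and 2 alone both passed, at 1.14 against Flk1+Pdgfra+ cells (adjusted p = 0.0030) and 2.07 against Flk1+ cells (0.000329).

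Among the Fringe enzymes, which extend the O-fucose sugar on Notch receptors in the Golgi, Mfng followed the pattern of Dll4. Mfng (6837045, chromosome 15) had 8.23, 9.62 and 8.37 in cTnT+ cells, 6.80, 6.74 and 6.76 in Flk1+Pdgfra+ cells, and 8.97, 9.23 and 7.85 in Flk1+ cells. Every Flk1+Pdgfra+ array lay below every other array, and the Flk1+Pdgfra+ values were tight (SD 0.03). Mfng was 3.78-fold lower in Flk1+Pdgfra+ than in Flk1+ cells (-1.92 ± 0.43, SE, adjusted p = 0.0277), and the call was lost without any one Flk1+Pdgfra+ array or without Flk1+ replicate 1 or 2 (adjusted p 0.0718 to 0.108). From replicates 1 and 2 alone it passed (adjusted p = 0.018). It was 3.93-fold higher in cTnT+ than in Flk1+Pdgfra+ cells (1.97, adjusted p = 0.00671), and this call held whichever array was left out.

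Lfng, the Fringe of the segmentation clock, was highest on the same array as Dll1 and Dll3. Lfng (6935292, chromosome 5) had 8.14, 8.51 and 8.36 in cTnT+ cells, 8.51, 8.62 and 10.80 in Flk1+Pdgfra+ cells, and 8.06, 8.04 and 8.95 in Flk1+ cells. None of its differences passed: 0.96 between Flk1+Pdgfra+ and Flk1+ cells (adjusted p = 0.336), -0.97 between cTnT+ and Flk1+Pdgfra+ cells (0.217), and -0.01 between cTnT+ and Flk1+ cells (0.988). From replicates 1 and 2 alone the difference between the progenitor fractions was 0.52 (adjusted p = 0.0545). Rfng (6792819, chromosome 11) varied far less, with 8.22, 8.30 and 8.52 in cTnT+ cells, 8.77, 8.85 and 8.73 in Flk1+Pdgfra+ cells, and 8.65, 8.64 and 8.65 in Flk1+ cells. Rfng was 1.35-fold lower in cTnT+ than in Flk1+Pdgfra+ cells (-0.44, adjusted p = 0.00574) and 1.23-fold lower than in Flk1+ cells (-0.30, adjusted p = 0.0329). The second call was lost on leaving out any single array other than cTnT+ replicate 3 or Flk1+Pdgfra+ replicate 3 (adjusted p 0.0529 to 0.0946).

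**Figure D2:**
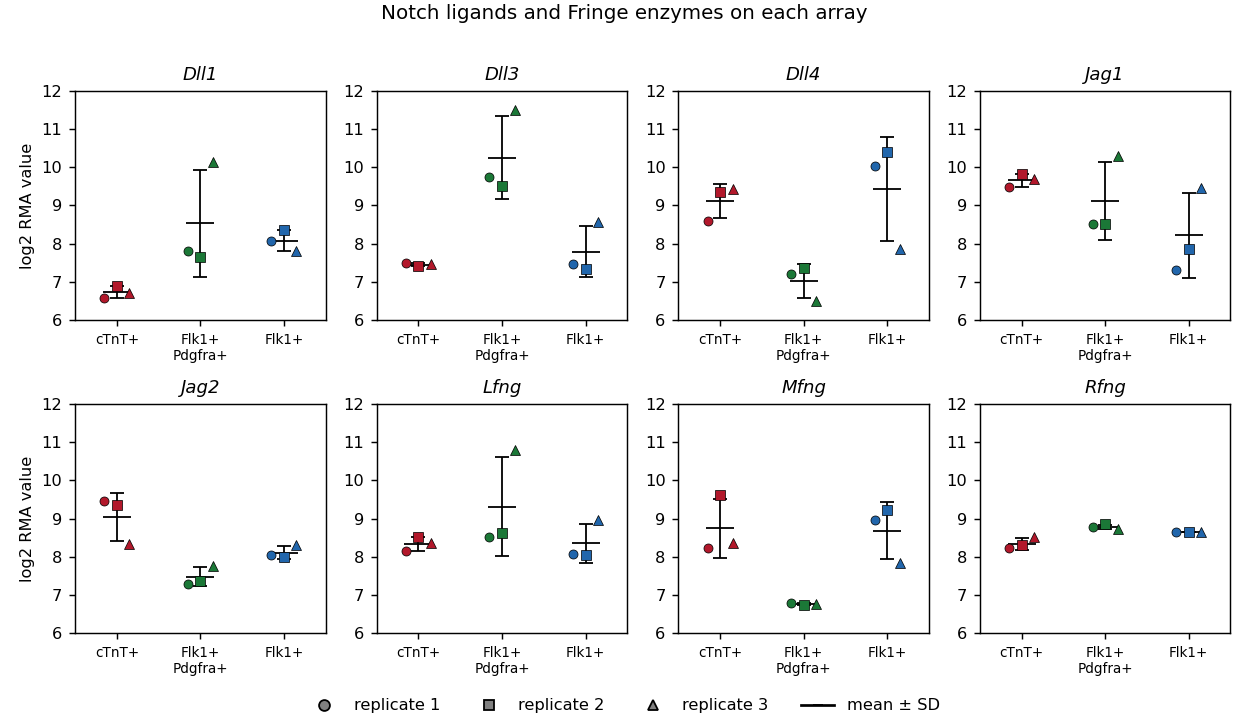
Log2 RMA values (y axis) of the 5 ligands and 3 Fringe enzymes on each of the 9 arrays, with the mean and SD of each group; symbols mark replicates 1 to 3. Dll3 is highest, and Dll4 and Mfng lowest, on all Flk1+Pdgfra+ arrays, while Dll1 and Lfng are high on Flk1+Pdgfra+ replicate 3.

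The mesodermal set (Dll1 and Dll3) and the vascular set (Dll4 and Mfng) were set against each other on each array. Each gene was centred on its own mean over the 9 arrays, the members of a set were averaged, and the vascular value was subtracted from the mesodermal one; the sets were chosen with these data known, so no test is given. The balance was -1.22, -2.17 and -1.65 in cTnT+ cells, 1.93, 1.69 and 4.33 in Flk1+Pdgfra+ cells, and -1.57, -1.81 and 0.48 in Flk1+ cells. The centring sets the zero of this scale, so only differences between arrays are read. Every Flk1+Pdgfra+ array lay above every other array, Flk1+ replicate 3 came next, and the cTnT+ arrays overlapped Flk1+ replicates 1 and 2. Group means were -1.68 ± 0.47 in cTnT+ cells, 2.65 ± 1.46 in Flk1+Pdgfra+ cells and -0.97 ± 1.26 in Flk1+ cells (SD, n = 3 each). Flk1+Pdgfra+ cells thus exceeded Flk1+ cells by 3.62, and by 3.50 when only replicates 1 and 2 were used. cTnT+ cells stood at -4.33 against Flk1+Pdgfra+ cells, and at -3.49 with replicates 1 and 2 of the progenitors. The gap between cTnT+ and Flk1+ cells was -0.71 with all arrays and 0.0096 without Flk1+ replicate 3, so it rests on that array.

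The sets changed by different members from one comparison to the next. Between the progenitor fractions, Dll3 carried the mesodermal side, since Dll1 did not pass, and both Dll4 and Mfng fell in Flk1+Pdgfra+ cells. Between cTnT+ and Flk1+Pdgfra+ cells all 4 genes passed, Dll1 and Dll3 lower and Dll4 and Mfng higher in cTnT+ cells. In cTnT+ cells the mesodermal set was near the same low value on all arrays (-1.11, -0.99 and -1.04), and the vascular set ranged more widely (0.12, 1.19 and 0.60). The endothelial list, described further on, was also highest on cTnT+ replicate 2, the array with the highest vascular set among the cTnT+ arrays.

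**Figure D3:**
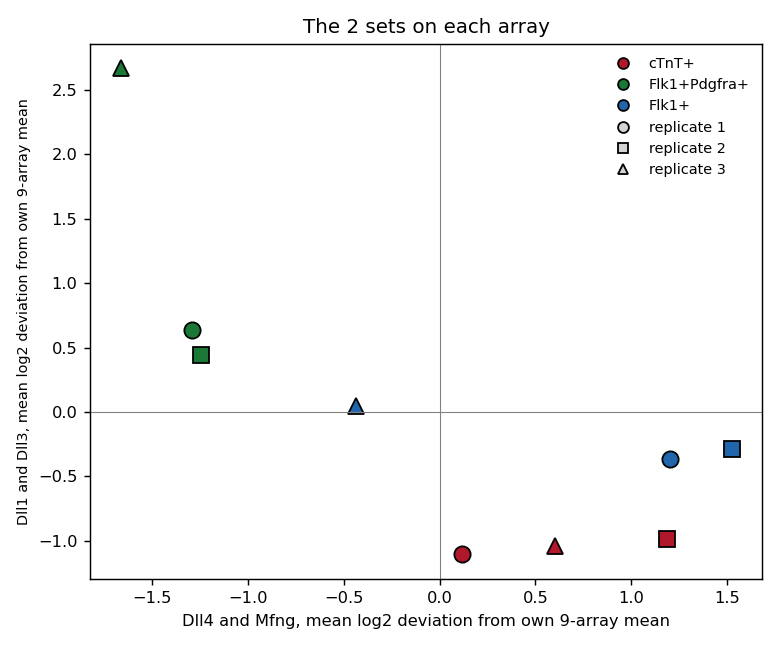
The vascular set (Dll4 and Mfng, x axis) and the mesodermal set (Dll1 and Dll3, y axis) on each of the 9 arrays, as mean log2 deviations from each gene's own 9-array mean. Flk1+Pdgfra+ arrays lie at the upper left, cTnT+ arrays at the lower right, and Flk1+ replicate 3 lies apart from the other Flk1+ arrays.

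Notch2 and Notch3 were lower in cTnT+ cells than in both progenitor fractions. Notch3 (6854864, chromosome 17), the receptor known from vascular smooth muscle, had 9.62, 10.14 and 10.17 in cTnT+ cells, 11.03, 10.94 and 10.74 in Flk1+Pdgfra+ cells, and 10.75, 10.64 and 10.66 in Flk1+ cells. It was 1.90-fold lower in cTnT+ than in Flk1+Pdgfra+ cells (-0.92 ± 0.15, SE, adjusted p = 0.00163) and 1.63-fold lower than in Flk1+ cells (-0.71, adjusted p = 0.00685). No cTnT+ array reached the lowest progenitor array. Notch2 (6899861, chromosome 3), a receptor of heart and vessel wall, had 9.98, 9.98 and 10.05 in cTnT+ cells, 10.49, 10.49 and 10.41 in Flk1+Pdgfra+ cells, and 10.32, 10.42 and 10.59 in Flk1+ cells. It was 1.37-fold lower in cTnT+ than in Flk1+Pdgfra+ cells (adjusted p = 0.00352) and 1.36-fold lower than in Flk1+ cells (adjusted p = 0.00469). All these calls held whichever array was left out. Between the progenitor fractions Notch2 differed by 0.02 and Notch3 by 0.22, and neither passed.

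Notch1 (6885488, chromosome 2), the main receptor of endothelium and endocardium, had 9.92, 10.93 and 10.06 in cTnT+ cells, 9.69, 9.60 and 11.12 in Flk1+Pdgfra+ cells, and 11.32, 11.43 and 11.14 in Flk1+ cells. All Flk1+ arrays lay above all others, but Flk1+Pdgfra+ replicate 3 came just under the lowest of them. The difference between Flk1+Pdgfra+ and Flk1+ cells was -1.16 (95% interval -2.11 to -0.20, adjusted p = 0.124). From replicates 1 and 2 alone it was -1.73 (adjusted p = 0.0164), and without Flk1+Pdgfra+ replicate 3 it was -1.65 (adjusted p = 0.0168). Against Flk1+ cells the cTnT+ group stood at -0.99 (adjusted p = 0.0953). This passed without cTnT+ replicate 2 (-1.31, adjusted p = 0.0493), without Flk1+Pdgfra+ replicate 3 (-0.99, adjusted p = 0.0183) and under median centring (-1.33, adjusted p = 0.0188). It also passed from progenitor replicates 1 and 2 alone (-1.07, adjusted p = 0.0259), with array weights (-1.08, 0.0312) and in a fit of these groups alone (0.03525).

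The gamma-secretase subunits Psen2 and Ncstn were slightly higher in cTnT+ than in Flk1+Pdgfra+ cells, with calls that were lost under median centring. Aph1c, another subunit measured outside the list of members, averaged 8.12 ± 0.21 in cTnT+ cells and 8.07 ± 0.22 in Flk1+Pdgfra+ cells (SD, n = 3 each) and was not called between them (difference 0.05, adjusted p = 0.839). Against Flk1+ cells Aph1c was called higher in cTnT+ cells (0.51, adjusted p = 0.0456) and not called in Flk1+Pdgfra+ cells (0.45, 0.139). Psen2 (6764580, chromosome 1), a catalytic subunit, had 7.43, 7.91 and 7.87 in cTnT+ cells, 7.33, 7.24 and 7.03 in Flk1+Pdgfra+ cells, and 7.65, 7.55 and 7.70 in Flk1+ cells. Ncstn (6764123, chromosome 1), the nicastrin subunit that receives the substrate, had 10.75, 11.09 and 11.18 in cTnT+ cells, 10.44, 10.46 and 10.74 in Flk1+Pdgfra+ cells, and 10.65, 10.63 and 10.78 in Flk1+ cells. The cTnT+ and Flk1+Pdgfra+ arrays did not overlap for either gene, though for Ncstn the lowest cTnT+ array only just cleared the highest Flk1+Pdgfra+ array. Psen2 rose 1.45-fold (adjusted p = 0.0162) and Ncstn 1.38-fold (adjusted p = 0.0246) in cTnT+ cells. Median centring of the arrays, which lowered the median cTnT+ difference of all genes by 0.33, left Psen2 at 0.21 (adjusted p = 0.263) and Ncstn at 0.13 (0.398), and quantile scaling left Psen2 at 0.21 (0.235). The Psen2 call was also lost without cTnT+ replicate 2 or 3 or Flk1+Pdgfra+ replicate 3 (adjusted p 0.0536 to 0.0559). The Ncstn call was lost without cTnT+ replicate 2 or 3 or Flk1+Pdgfra+ replicate 1 or 2 (adjusted p 0.0740 to 0.0881). Between Flk1+Pdgfra+ and Flk1+ cells Psen2 differed by -0.43 (adjusted p = 0.0973), called without cTnT+ replicate 1 (adjusted p = 0.0350). That difference was also called in a fit of these groups alone (0.0489), under quantile scaling (0.04625) and with array weights (0.0084). From replicates 1 and 2 alone it was not (-0.32, adjusted p = 0.3205).

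In the nucleus, Maml3, one of the Mastermind coactivators, was higher in cTnT+ cells. Maml3 (6905006, chromosome 3) had 9.39, 9.98 and 9.63 in cTnT+ cells, 8.25, 8.40 and 9.10 in Flk1+Pdgfra+ cells, and 8.71, 8.76 and 9.17 in Flk1+ cells, with no overlap between cTnT+ and progenitor arrays. It rose 2.12-fold in cTnT+ against Flk1+Pdgfra+ cells (1.09, adjusted p = 0.00829) and 1.73-fold against Flk1+ cells (0.79, adjusted p = 0.036). The second call was lost without cTnT+ replicate 2 or 3, Flk1+ replicate 1 or 2 or Flk1+Pdgfra+ replicate 2 (adjusted p up to 0.114), and under median centring (0.45, 0.0943). Rbpj (6930864, chromosome 5), the DNA-binding partner of all Notch receptors, ranged from 6.40 to 7.23 over the 9 arrays and differed by at most 0.19 between groups. Its interval between Flk1+Pdgfra+ and Flk1+ cells was -0.47 to 0.57. Maml1 (6788019, chromosome 11) ranged from 9.12 to 9.42. Neither passed in any comparison.

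Hes1 was the single Notch gene that passed in all 3 comparisons, and it was highest in Flk1+Pdgfra+ cells. Hes1 (6840400, chromosome 16), a repressor downstream of Notch and of other signals, had 8.40, 9.17 and 8.86 in cTnT+ cells, 10.94, 10.99 and 10.88 in Flk1+Pdgfra+ cells, and 10.08, 10.18 and 10.25 in Flk1+ cells. The 3 groups did not overlap, and replicate 3 did not stand apart in either progenitor fraction. Hes1 was 4.38-fold lower in cTnT+ than in Flk1+Pdgfra+ cells (-2.13, adjusted p = 4.94e-05) and 2.57-fold lower than in Flk1+ cells (-1.36, adjusted p = 0.000508), and both calls held whichever array was left out. Between Flk1+Pdgfra+ and Flk1+ cells it was 1.70-fold higher (0.77 ± 0.17, SE, adjusted p = 0.0276). With 1 array left out that difference lay between 0.72 and 0.81, and its call was lost without any one Flk1+Pdgfra+ array or without Flk1+ replicate 1 or 2 (adjusted p 0.0629 to 0.101). From replicates 1 and 2 alone it was 0.84 (adjusted p = 0.0653).

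Nrarp, a Notch target that damps the pathway in turn, was lower in cTnT+ cells. Nrarp (6875695, chromosome 2) had 8.04, 9.05 and 7.84 in cTnT+ cells, 9.30, 9.43 and 10.07 in Flk1+Pdgfra+ cells, and 9.17, 9.30 and 9.95 in Flk1+ cells. It was 2.45-fold lower in cTnT+ than in Flk1+Pdgfra+ cells (-1.29, adjusted p = 0.0195) and 2.24-fold lower than in Flk1+ cells (-1.16, adjusted p = 0.032), and the progenitor fractions differed by 0.13. The first call was lost without cTnT+ replicate 1 or 3 or Flk1+Pdgfra+ replicate 3 (adjusted p 0.0651 to 0.0654). The second was lost without cTnT+ replicate 1 or 3 or Flk1+ replicate 2 or 3 (adjusted p 0.0621 to 0.102), and from progenitor replicates 1 and 2 alone (adjusted p = 0.0744).

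The repressors Hey1 and Hey2 spread widely within groups and neither passed. Hey1 (6903088, chromosome 3), known from atrial myocardium and vessels, had 9.99, 10.37 and 9.54 in cTnT+ cells, 11.48, 11.47 and 9.88 in Flk1+Pdgfra+ cells, and 11.41, 11.39 and 9.84 in Flk1+ cells. In both progenitor fractions replicate 3 was lower than its partners, by a shift of -1.60 in Flk1+Pdgfra+ cells and -1.56 in Flk1+ cells. On all arrays the cTnT+ group stood at -0.98 against Flk1+Pdgfra+ cells (adjusted p = 0.198) and -0.91 against Flk1+ cells (0.235), and from progenitor replicates 1 and 2 alone both passed (adjusted p = 0.00229 and 0.00295). The first also passed without Flk1+Pdgfra+ replicate 3 (-1.51, adjusted p = 0.0437). Hey2 (6773072, chromosome 10), known from ventricular myocardium and arteries, had 8.77, 10.84 and 9.48 in cTnT+ cells, 8.47, 8.74 and 7.86 in Flk1+Pdgfra+ cells, and 10.12, 10.46 and 8.69 in Flk1+ cells. Its difference between Flk1+Pdgfra+ and Flk1+ cells was -1.40 (95% interval -2.78 to -0.02, adjusted p = 0.187), and it passed with the replicate block over the 6 progenitor arrays (adjusted p = 0.0288). From replicates 1 and 2 alone it was -1.69 and did not pass (adjusted p = 0.133). Against Flk1+Pdgfra+ cells the cTnT+ group was 1.34 higher (adjusted p = 0.112). These groups did not overlap, though the lowest cTnT+ array (8.77) only just cleared the highest Flk1+Pdgfra+ array (8.74).

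The other genes listed as targets varied little. Hes5 (6919093, chromosome 4), the target of neural progenitors, ranged from 7.35 to 7.67 over all arrays, and Hes7 (6781986, chromosome 11), an oscillator of the segmentation clock, from 7.47 to 7.88. Hes6 (6760678, chromosome 1), a relative of Hes1 that opposes it in neural cells, ranged from 9.17 to 9.74, and Heyl (6916952, chromosome 4), a Hey factor of vascular smooth muscle, from 6.46 to 7.28. None of these genes passed in any comparison. Hes5 and Hes7, together with Lfng, Hey2 and Psen2, hold the RBPJ letters printed above, and of these 5 genes Psen2 alone passed.

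**Figure D4:**
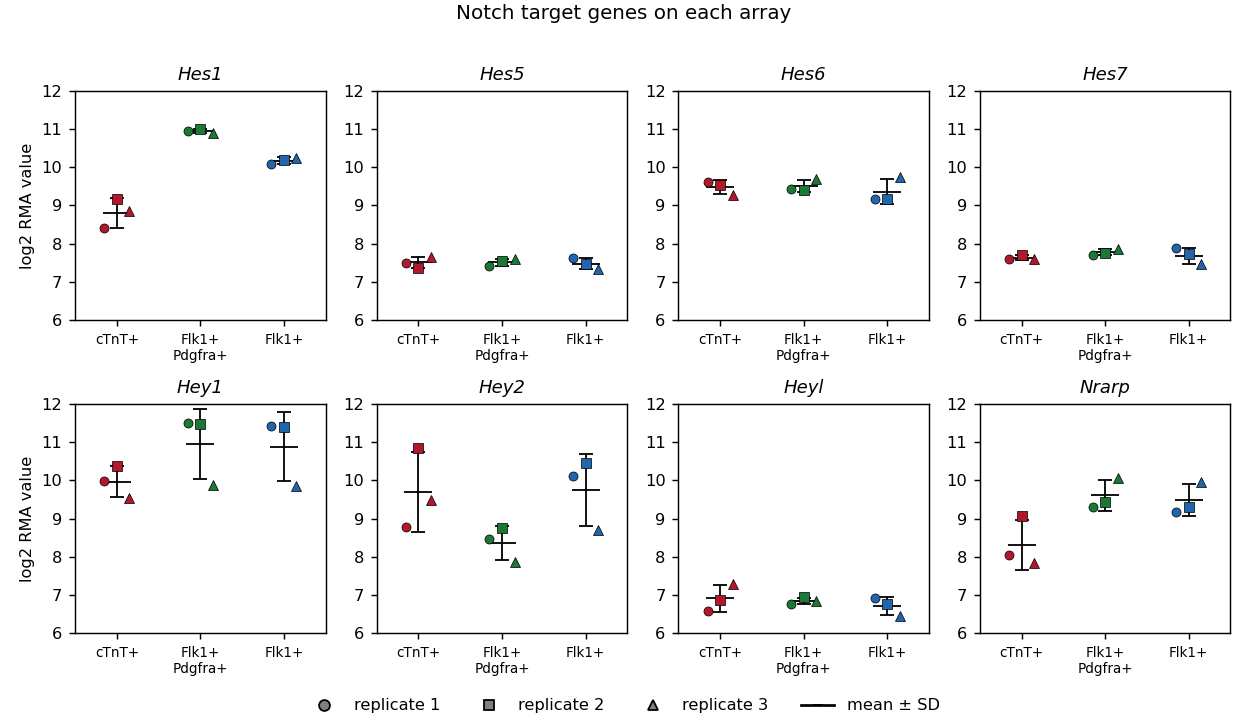
Log2 RMA values (y axis) of 8 genes listed as Notch targets on each of the 9 arrays, with the mean and SD of each group. Symbols mark replicates 1 to 3. Hes1 separates all groups, Nrarp is lower in cTnT+ cells, and Hey1 is lower on replicate 3 of both progenitor fractions.

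The related adaptors Numb and Numbl, which bind Notch at the membrane and restrain it, behaved differently from each other. Numb (6802290, chromosome 12) had 10.34, 10.43 and 9.99 in cTnT+ cells, 9.93, 9.98 and 9.93 in Flk1+Pdgfra+ cells, and 10.66, 10.82 and 10.54 in Flk1+ cells. It was 1.65-fold lower in Flk1+Pdgfra+ than in Flk1+ cells (-0.73, adjusted p = 0.0101), and of the 5 calls in that comparison it was the one that held whichever array was left out. From replicates 1 and 2 alone the difference was -0.79 (adjusted p = 0.0226). Numb was also 1.34-fold lower in cTnT+ than in Flk1+ cells (-0.42, adjusted p = 0.0292), a call lost without cTnT+ replicate 3 (-0.29, 0.0649), Flk1+ replicate 1 (-0.43, 0.0656) or Flk1+ replicate 2 (-0.35, 0.105). Numbl (6959292, chromosome 7) had 10.05, 10.31 and 10.49 in cTnT+ cells, 8.68, 8.61 and 8.85 in Flk1+Pdgfra+ cells, and 8.80, 8.82 and 9.19 in Flk1+ cells. All cTnT+ arrays were well above all progenitor arrays, 2.97-fold over Flk1+Pdgfra+ cells (1.57, adjusted p = 0.0001) and 2.55-fold over Flk1+ cells (1.35, adjusted p = 0.000258).

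Groups that did not overlap were counted apart from the test. Of the 26 genes, 3 lay wholly higher and 6 wholly lower in Flk1+Pdgfra+ than in Flk1+ cells, where 20.2% and 14.1% of all genes did. In cTnT+ against Flk1+Pdgfra+ cells the counts were 9 and 9, where 28.8% and 26.2% of all genes did, and in cTnT+ against Flk1+ cells 4 and 8, where 26.8% and 20.6% did. The genes called in both the comparison of progenitor fractions and that of cTnT+ with Flk1+Pdgfra+ cells were Dll3, Dll4, Mfng and Hes1, and these comparisons share the Flk1+Pdgfra+ arrays.

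Beyond the listed genes, 30 of 45 further genes of the pathway were measured. Between Flk1+Pdgfra+ and Flk1+ cells 3 rose and 3 fell, in cTnT+ against Flk1+Pdgfra+ cells 7 rose and 7 fell, and in cTnT+ against Flk1+ cells 9 rose and 7 fell. Each of these counts out of 30 is read against the all-gene shares of 4.64% and 5.87%, 22.5% and 18.7%, and 22.6% and 16.6%. The 7 and 7 genes of cTnT+ against Flk1+Pdgfra+ cells (23.3% each way) lie near those shares. Egfl7, a secreted endothelial protein that binds Notch, had 9.83, 10.25 and 9.56 in cTnT+ cells, 9.13, 9.22 and 8.50 in Flk1+Pdgfra+ cells, and 11.49, 11.48 and 11.05 in Flk1+ cells. It was 5.22-fold lower in Flk1+Pdgfra+ than in Flk1+ cells (adjusted p = 0.00173), the same direction as Dll4 and Mfng. The cleaving enzymes Adam10, which cuts the receptor outside the membrane, and Furin, which cuts it during maturation, were also lower in Flk1+Pdgfra+ cells (1.86-fold and 1.58-fold). In cTnT+ against Flk1+Pdgfra+ cells Furin rose 4.45-fold, Adam10 1.98-fold, and Neurl1b, a ubiquitin ligase acting on ligands, 7.26-fold. Against Flk1+ cells Furin rose 2.81-fold, Neurl1b 8.50-fold and Mib2, another ligand ubiquitin ligase, 1.71-fold, while Egfl7 fell 2.74-fold.

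Dlk1, a ligand-like protein without the motif that activates Notch, changed most among these genes in both comparisons with cTnT+ cells. It had 12.83, 13.21 and 13.43 in cTnT+ cells, 9.63, 9.69 and 8.71 in Flk1+Pdgfra+ cells, and 8.25, 8.34 and 8.41 in Flk1+ cells. It was 14.0-fold higher in cTnT+ than in Flk1+Pdgfra+ cells (adjusted p = 2.53e-05), 28.3-fold higher in cTnT+ than in Flk1+ cells, and 2.02-fold higher in Flk1+Pdgfra+ than in Flk1+ cells (adjusted p = 0.0462). Of 12 measured nuclear partners (19 listed), 6 fell and 1 rose in cTnT+ against Flk1+Pdgfra+ cells, where 18.7% of all genes fell and 22.5% rose. Among those that fell were the corepressors Tle3 (2.90-fold) and Tle4 (1.80-fold) and the acetyltransferase Kat2a (1.84-fold). The demethylase Kdm5a rose 1.69-fold. Tle3 rose 1.80-fold and the deacetylase Hdac2 1.24-fold in Flk1+Pdgfra+ against Flk1+ cells. In cTnT+ against Flk1+ cells Tle1 fell 1.77-fold and Tle2 rose 1.31-fold. Fbxw7, which marks the Notch intracellular domain for destruction, was 1.57-fold lower in cTnT+ than in Flk1+Pdgfra+ cells and 1.92-fold lower than in Flk1+ cells.

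Lists of marker genes moved between the same groups. The endothelial list (12 genes, Pecam1 and Cdh5 among them) had a mean log2 value of 9.52 to 10.3 in cTnT+ cells, 7.02 to 8.56 in Flk1+Pdgfra+ cells and 10.3 to 11.4 in Flk1+ cells. Of its genes, 10 of 12 fell in Flk1+Pdgfra+ against Flk1+ cells (median difference -3.50), and 8 rose and 1, Etv2, fell in cTnT+ against Flk1+Pdgfra+ cells (median 2.35). The nascent mesoderm list (7 of 8 genes measured) ran from 7.16 to 7.54 in cTnT+ cells, 11.3 to 11.7 in Flk1+Pdgfra+ cells and 8.62 to 9.87 in Flk1+ cells. All 7 rose in Flk1+Pdgfra+ against Flk1+ cells, and all 7 fell in cTnT+ against Flk1+Pdgfra+ cells. Over all genes 4.64% rose and 5.87% fell in the first of these comparisons, and 22.5% rose and 18.7% fell in the second. The part of these marker shifts in the Dll3, Dll4, Mfng and Hes1 results was not tested.

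Of 9 measured presomitic and segmentation genes (12 listed), 3 rose and 6 were not called in Flk1+Pdgfra+ against Flk1+ cells, and 4 fell in cTnT+ against Flk1+Pdgfra+ cells. Over all genes 4.64% rose in the first of these comparisons and 18.7% fell in the second. The list averaged 7.02 to 7.08 in cTnT+ cells, 7.91 to 8.77 in Flk1+Pdgfra+ cells and 6.77 to 7.14 in Flk1+ cells. In Flk1+Pdgfra+ against Flk1+ cells Mesp1, a factor of early cardiac and paraxial mesoderm that is also on the nascent mesoderm list, rose 15.7-fold (adjusted p = 7.62e-07), Tbx6, a regulator of Dll1 in presomitic mesoderm, 4.60-fold (0.0160) and Mesp2, a segmentation factor, 1.82-fold (0.0401). In cTnT+ against Flk1+Pdgfra+ cells Mesp1 fell 18.5-fold, Tbx6 4.40-fold and Pcdh8, a protocadherin of paraxial mesoderm, 2.86-fold, and in cTnT+ against Flk1+ cells the Eph receptor Epha4 rose 4.22-fold. Mesp1 had 10.25, 10.21 and 10.41 in Flk1+Pdgfra+ cells and did not stand apart on replicate 3, whereas Tbx6 had 8.76, 8.59 and 10.41. Msgn1, another presomitic factor, did not pass and was at 7.32, 7.10 and 9.75 in those cells, with its high array the one where Dll1, Dll3 and Lfng were high.

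Blood markers (9 of 10 measured) ran from 8.21 to 8.62 in cTnT+ cells, 7.10 to 7.45 in Flk1+Pdgfra+ cells and 8.11 to 8.99 in Flk1+ cells. Pluripotent-cell markers (8 genes) ran from 6.58 to 7.05 in cTnT+ cells, 8.39 to 8.83 in Flk1+Pdgfra+ cells and 6.07 to 8.71 in Flk1+ cells. The top Flk1+ value was on replicate 3, where Dll4, Mfng, Hey1 and Hey2 were low. On Flk1+Pdgfra+ replicates 1 and 2 this list averaged 8.39 and 8.49. There Dll4, Mfng and Hey2 were low too, but Hey1 was high (11.48 and 11.47). Cardiomyocyte markers (8 genes) ran from 10.3 to 11.3 in cTnT+ cells, 6.25 to 6.38 in Flk1+Pdgfra+ cells and 6.24 to 6.51 in Flk1+ cells. Smooth muscle and fibroblast markers were at 9.09 to 10.2 in cTnT+ cells, 7.04 to 7.47 in Flk1+Pdgfra+ cells and 6.40 to 7.89 in Flk1+ cells. In cTnT+ against Flk1+Pdgfra+ cells, where 22.5% of all genes rose and 18.7% fell, 5 of 9 blood markers rose and 1, Runx1, fell 3.03-fold. In the same comparison 6 of 8 smooth muscle and fibroblast markers rose while the others were not called. The part of these lists and the endothelial one in the cTnT+ values of Dll4, Mfng, Jag2 and Numbl was not tested.

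**Figure D5:**
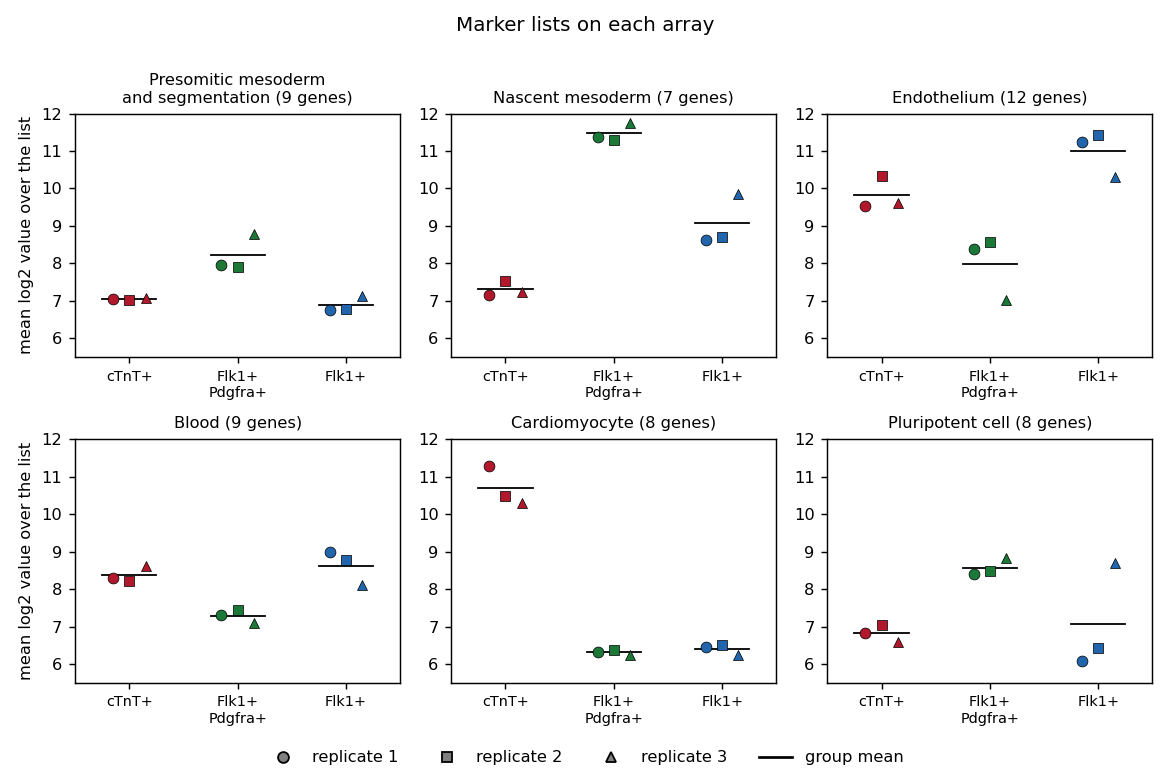
Mean log2 RMA value over each of 6 marker lists (y axis) on each of the 9 arrays; lines are group means and symbols mark replicates 1 to 3. The endothelial list mean is lowest and the nascent mesoderm and presomitic list means are highest in Flk1+Pdgfra+ cells, and the pluripotent-cell list mean is high on Flk1+ replicate 3.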

How the data were processed

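Per the labels, the authors derived the deposited log2 values with RMA, at the core-gene level, in the Transcriptome Analysis Console. R 3.3.1 is listed beside RMA in the submitters' processing notes. The sources used here name no genome build or library file. The deposited file held 23332 transcript clusters on 9 arrays, with values from 1.47 to 14.2, 0 missing, and array medians from 7.26 to 7.53. Of the clusters, 14996 had exactly 1 symbol in the platform annotation, 1019 had several and 7317 had none. By Entrez identifier, 14941 of the 14996 were matched to RefSeq (GRCm38.p6) and took its symbol. The brightest cluster was kept for the 135 genes with more than 1, which left 14860. Detection was not measured, and no gene was filtered for dimness (array lower quartiles 5.60 to 5.69), and the number of arrays limits the precision.

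Groups and replicate numbers were read from the array titles. Group differences came from limma 3.58.1 (R 4.3.3) fitted to all 9 arrays (a linear model with moderated variance and no trend, two-sided tests, 6 residual and 2.23 prior degrees of freedom), with Benjamini-Hochberg adjustment over 14860 genes and calls under 0.05. Intervals are at 95%. The code was tested on simulated data. Separate cultures behind the arrays of a group are not stated in the labels. P-values then measure only the spread among these samples, which may be technical.

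The members and gene lists were chosen with earlier results of these data known. All members are named; other Notch genes and context lists are named by the called genes with the largest difference, up to 3 per direction, list and comparison, and the sort markers are given besides. Msgn1, Pecam1, Cdh5, Nanog, Etv2, Aph1c and Runx1 were named after their values were seen. Same-numbered progenitor arrays deviated together from their group means (correlations 0.25, 0.33 and 0.46 over genes). Differently numbered arrays were not compared, so it was not tested whether the numbers pair the Flk1+Pdgfra+ and Flk1+ arrays. For cTnT+ arrays against same-numbered progenitor arrays these correlations were 0.02 to 0.10. Alternatives were other scalings, filters, fits and row rules, a replicate block, and leaving out arrays.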

Additional observations from a re-analysis of the deposited data

How the results depend on the processing

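The numbers of Notch genes called depended on the processing mainly between the progenitor fractions. Against 2 higher and 3 lower in Flk1+Pdgfra+ than in Flk1+ cells, array weights called 7 higher and 8 lower. These weights were 0.494 for Flk1+Pdgfra+ replicate 3 and 0.251 for Flk1+ replicate 3. They were 0.508 to 0.604 for the cTnT+ arrays, and 2.52 and 3.61 for Flk1+Pdgfra+ replicates 1 and 2. Flk1+ replicate 1 had 0.710 and Flk1+ replicate 2 had 7.73, so the weighted Flk1+ means rest mostly on replicate 2. Calls over all 14860 genes moved as well, from 690 higher and 872 lower to 4521 and 3017 with array weights. Without Flk1+ replicate 1 they were 286 and 613, and without Flk1+ replicate 2 they were 203 and 461. A fit of only the Flk1+Pdgfra+ and Flk1+ groups called 1 Notch gene higher. The replicate block over the 6 progenitor arrays, added after seeing the data, called 3 higher and 5 lower, with Jag1 added on the higher side and Jag2 and Hey2 on the lower. The replicate block over all 9 arrays called 2 and 3, against 8 and 8 (cTnT+ against Flk1+Pdgfra+) and 4 and 6 (cTnT+ against Flk1+), and no count moved by more than 1.5 times. Same-numbered cTnT+ and progenitor arrays hardly deviated together. The block over all 9 arrays called Hey1 (-0.98, adjusted p = 0.0144) and Hey2 (1.34, 0.0418) in cTnT+ against Flk1+Pdgfra+ cells. In cTnT+ against Flk1+ cells it called Hey1 (-0.91, 0.0199) and Jag1 (1.44, 0.0303) and lost Jag2 (0.0616) and Rfng (0.0553). cTnT+ against Flk1+ cells, 3 higher and 6 lower as reported, gave 5 higher with array weights, 2 and 7 with quantile scaling, and 1 and 8 with median centring. Over all genes that comparison went from 3363 higher and 2464 lower to 1909 and 4721 with median centring. cTnT+ against Flk1+Pdgfra+ cells gave 5 and 8 with median centring, against 7 and 7. Leaving out 1 array at a time gave 0 to 2 higher and 1 to 3 lower between the progenitor fractions (2 higher and 4 lower at an unadjusted limma p under 0.05 without Flk1+ replicate 1 or 2, the arrays whose loss gave 0), 4 to 7 and 5 to 7 for cTnT+ against Flk1+Pdgfra+ cells, and 1 to 4 and 3 to 8 for cTnT+ against Flk1+ cells. Of the calls, 1 of 5, 9 of 14 and 4 of 9 held whichever array was left out, in the order of those comparisons. The balance of the mesodermal and vascular sets ranged from 2.78 to 4.34 between the progenitor fractions, from -4.81 to -3.49 for cTnT+ against Flk1+Pdgfra+ cells, and from -1.13 to 0.0096 for cTnT+ against Flk1+ cells, where it was also 0.0096 with progenitor replicates 1 and 2 only. Dll1 between the progenitor fractions changed sign with array weights (-0.43), with replicates 1 and 2 only (-0.48) and without Flk1+Pdgfra+ replicate 3 (-0.35; range -0.35 to 0.89). A fit of the compared groups alone lost the cTnT+ against Flk1+ calls of Jag2, Rfng, Nrarp and Numb (adjusted p 0.0640, 0.0834, 0.0536 and 0.0767). In the same comparison it gained Notch1 (0.03525) and Dll1 (0.00247). Progenitor replicates 1 and 2 only lost the cTnT+ against Flk1+ calls of Rfng (0.0743) and Nrarp (0.0744) and, against Flk1+Pdgfra+ cells, that of Psen2 (0.0611). A trended, robust variance also lost Rfng in cTnT+ against Flk1+ cells (0.0504). Median centring shifted the all-gene median by -0.33 and -0.34 in the comparisons with cTnT+ cells, and quantile scaling by -0.09 and -0.14. Of the uncalled differences under 0.4, 8 of 14, 6 of 8 and 13 of 13 changed sign in an alternative, and 5, 2 and 2 were called in one (Notch3, Rfng, Rbpj, Maml3 and Hes6; Hes7 and Numb; Dll4 and Ncstn). The causes of these changes were not tested.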

Other observations

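Genes of arteries and veins were looked at beside the vascular Notch genes, as 10 measured of 11 listed. In cTnT+ against Flk1+Pdgfra+ cells 4 rose by limma's adjusted p (40.0%, where 22.5% of all genes rose). They were Nr2f2 (5.36-fold), a factor of venous identity and atrial muscle, and Epas1 (3.96-fold), a hypoxia-response factor of endothelium. The others were the co-receptor Nrp1 (2.20-fold) and Ephb4, a receptor of venous endothelium. In cTnT+ against Flk1+ cells 3 rose (30.0%, where 22.6% of all genes did): Nr2f2 3.36-fold, Nrp1 2.99-fold and Epas1 2.84-fold. Nr2f2 had 9.77, 8.84 and 10.80 in cTnT+ cells, 7.41, 7.39 and 7.34 in Flk1+Pdgfra+ cells, and 8.10, 8.03 and 8.03 in Flk1+ cells. Its highest cTnT+ array was replicate 3, where Dll4 (9.42) was also highest among the cTnT+ arrays. Its lowest was replicate 2, where Mfng, Hey2 and Notch1 were highest among the cTnT+ arrays. Ephb4 was 1.58-fold lower in Flk1+Pdgfra+ than in Flk1+ cells (adjusted p = 0.0291), and it was the one gene of this list called between the progenitor fractions.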
